A study of Mus musculus with 10 samples.

Results

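At the downstream end of the Dlk1-Dio3 miRNA cluster, from miR-382 to miR-410, all 10 mature miRNAs in the deposited table rose in Tsc1 mutant liver. They were chosen by name, as every row of the table that belongs to miR-382, miR-134, miR-668, miR-485, miR-453, miR-154, miR-496, miR-377, miR-541, miR-409, miR-412, miR-369 or miR-410. These 13 hairpins gave 10 of the 285 rows, namely miR-382, miR-134, miR-485, miR-496, miR-377, miR-541, miR-409-3p, miR-409-5p, miR-369-3p and miR-410. The hairpins of miR-668, miR-453, miR-154 and miR-412 had no row. Small RNA was sequenced in 5 libraries from livers of L-Tsc1KO mice, labelled TSC1 mutant, and 5 from livers of littermate controls, all at an age of 14 weeks. Both groups were kept under the same housing conditions with free access to food. The sources used here do not give the driver of the knockout, the alleles of the controls, the sex of the mice or whether each library came from a separate animal.

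Dlk1-Dio3 is an imprinted domain. Its protein-coding genes Dlk1, Rtl1 and Dio3 are expressed from the paternal chromosome, and its non-coding RNAs Meg3, Rian and Mirg, with the miRNAs processed from these transcripts, from the maternal one. In adult tissue its miRNAs are best known from brain. Tsc1 is part of the complex that restrains the kinase mTORC1, and its loss raises mTORC1 signalling. The title of the series links loss of this complex to higher levels of the miRNAs of this domain and to gluconeogenesis, the making of glucose, which was not measured here.

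The miRNAs that carry the result are shown first, because a miRNA finds its targets mainly through its seed, bases 2 to 8, given here in capitals. Sequences are from RefSeq (GRCm38.p6), each 5′ to 3′, in the order of the hairpins along the chromosome. The table gives an arm in the names of miR-409-3p, miR-409-5p and miR-369-3p. For the others the arm shown is the one that older miRBase releases called by the plain name, and the deposited values themselves do not show which arm was counted.
miR-382 (5p): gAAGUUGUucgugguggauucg
miR-134 (5p): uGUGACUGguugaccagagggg
miR-496 (miR-496a-3p): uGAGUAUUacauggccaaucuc
miR-377 (3p): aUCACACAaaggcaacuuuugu
miR-541 (5p): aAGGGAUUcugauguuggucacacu
miR-409-5p: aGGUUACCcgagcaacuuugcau
miR-409-3p: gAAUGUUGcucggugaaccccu
miR-369-3p: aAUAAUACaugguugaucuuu
miR-410 (3p): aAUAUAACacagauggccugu

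The 9 seeds all differed from each other. Of the 9, only the seed of miR-410 was found in other mature mouse miRNAs of the RefSeq table, 2 of them, miR-344d-3p and miR-344e-3p, neither of which is in the deposited table. GC content ran from 23.8% in miR-369-3p to 59.1% in miR-134. The miR-409 hairpin is shown whole, with its 5p and 3p arms in capitals, because it is the only one of the 13 with both arms among the 10 rows.
miR-409 hairpin: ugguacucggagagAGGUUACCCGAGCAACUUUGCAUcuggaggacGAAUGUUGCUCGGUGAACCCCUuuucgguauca

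The hairpins span chr12:109733771-109743795 on the plus strand of GRCm38, 10025 bases in all. All 13 lie inside Mirg (chr12:109729764-109749460, plus strand, 12 transcripts in GENCODE M21), a non-coding host transcript. The hairpins of miR-134 and miR-485 lie within an exon of 3 Mirg transcripts, and that of miR-410 within an exon of 5. Those of miR-541, miR-409 and miR-496 lie in introns of all Mirg transcripts that cover them, 6 for miR-541, 6 for miR-409 and 8 for miR-496. The hairpin of miR-377 is exonic in 1 transcript and intronic in 6. Those of miR-382 and miR-369 reach only partly into an exon, in 3 transcripts each. Between hairpins, sequence identity in pairwise global alignments had a median of 52.4% and was highest between miR-382 and miR-410, at 68.7%. The mature sequences shown were less alike, with a median identity of 48.1% and a maximum of 62.5%, between miR-382 and miR-409-3p.

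Values are the authors' normalised reads, in which miRNA reads were divided by 1 factor per library. The libraries held 6228497 to 12129069 miRNA reads, and 3 reads were worth 2.13 to 5.05 normalised reads. Liver identity was checked with the hepatocyte miRNA miR-122, which made up 24.1 to 37.8% of normalised reads in controls and 22.8 to 32.7% in mutants. Tsc1 messenger RNA was not analysed here. Control replicate 2 stood apart in markers of other cell types. Its sum over 5 biliary epithelial miRNAs was 35789 normalised reads, against a control median of 5734 and a mutant range of 3126 to 7014. Its sum over 3 striated muscle miRNAs was 5638 against a control median of 540.8 and a mutant range of 151 to 919, and miR-375, a miRNA of pancreatic islets, was at 989.7 against a control median of 38.8 and a mutant range of 22.1 to 55.6. Its sum over 5 stellate and smooth muscle miRNAs was 363788, also the highest control, against a control median of 194469 and a mutant range of 131317 to 243057. Most of this sum is miR-143, with a control mean of 209593 normalised reads. The next highest of the 5 had a control mean of 10880, so the sum says little about the others. Of the markers in these 4 lists 0 passed the test between genotypes in limma over all miRNAs, and 1, a striated muscle marker, had an unadjusted p under 0.05. The sum over 2 neural miRNAs was 66.4 to 175 normalised reads in controls and 56.6 to 93.0 in mutants, and these ranges overlapped. Of these 2 neural miRNAs 0 passed in limma over all miRNAs and 1 had an unadjusted p under 0.05. Their median log2 fold change was -0.47. The replicates 1 of both groups also deviated together from the other libraries. Values without these libraries follow the member results.

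Expression of miR-541 was the highest of the 10. Control replicates 1 to 5 had 491, 1071, 583, 853 and 458 normalised reads. Tsc1 mutant replicates 1 to 5 had 3890, 4395, 4027, 4456 and 2662. The groups did not overlap, and the lowest mutant, replicate 5, was 2.49 times the highest control, replicate 2. The means were 691 ± 263 and 3886 ± 725 (± SD of 5 libraries). The log2 fold change, on the scale log2(normalised reads + 1) used throughout, was 2.55 ± 0.25 (SE), or 5.84-fold, with a limma adjusted p of 2.72e-05. Over all 285 miRNAs, 10.9% were called higher at an adjusted p under 0.05 and 2.11% lower. Because this is bulk liver, more cells of a type and more RNA per cell cannot be told apart in any of these values.

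Both arms of miR-409 rose. The 3p arm had 99.1, 301, 106, 149.7 and 106 normalised reads in control replicates 1 to 5. In mutant replicates 1 to 5 it had 656, 939, 926, 1076 and 623. All 5 mutants lay above all 5 controls, and the highest control was again replicate 2. Its log2 fold change was 2.57 ± 0.31 (SE), with means of 152 ± 85.7 and 844 ± 196 (mean ± SD of 5 libraries) and a limma adjusted p of 0.000133. The 5p arm was the less abundant one in every library. It had 10.4, 78.9, 24.1, 48.8 and 27.7 normalised reads in controls and 133.8, 253, 225, 351 and 174 in mutants. These groups did not overlap either, with control replicate 2 highest and mutant replicate 1 lowest in their groups. The log2 fold change of the 5p arm was 2.77 ± 0.48 (SE), with means of 38.0 ± 26.7 and 227 ± 83.1 (mean ± SD of 5 libraries) and a limma adjusted p of 0.00149.

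Whether the 2 arms moved alike was tested on their ratio within each library. The log2 ratio of 3p to 5p was 3.14, 1.92, 2.09, 1.60 and 1.89 in control replicates 1 to 5, and 2.29, 1.89, 2.04, 1.61 and 1.84 in mutant replicates 1 to 5. The ranges overlapped, and the replicate 1 library had the highest ratio in both groups. The mean ratio was 2.13 ± 0.59 in controls and 1.93 ± 0.25 in mutants (mean ± SD of 5 libraries), a difference of -0.20 ± 0.29 (SE; 2-sided exact permutation p = 0.619, adjusted p = 0.705). Without control replicate 1 the difference was 0.056. The test found no difference in arm usage, which does not show that the arms moved alike.

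Of the brain-enriched miR-134, known for limiting dendritic spine size in neurons, controls had 101, 151, 60.3, 62.2 and 56.4 normalised reads in replicates 1 to 5. Mutants had 455, 428, 434, 446 and 284. Replicates 1 to 4 of the mutants lay close together and replicate 5 below them, still 1.87 times the highest control. It rose by a log2 fold change of 2.32 ± 0.29 (SE), from 86.4 ± 40.7 to 409.5 ± 71.0 normalised reads (mean ± SD of 5 libraries), with a limma adjusted p of 0.00014. Its neighbour miR-382, whose hairpin starts 368 bases upstream, had 36.8, 93.1, 38.8, 43.7 and 34.9 in controls and 169, 230.0, 241, 262 and 147 in mutants. The other 4 controls of miR-382 lay within 34.9 to 43.7, with a coefficient of variation of 9.89%, while replicate 2 was far above them. The log2 fold change of miR-382 was 2.13 ± 0.29 (SE; adjusted p = 0.000258 in limma), and without control replicate 2 it was 2.38.

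**Figure D1:**
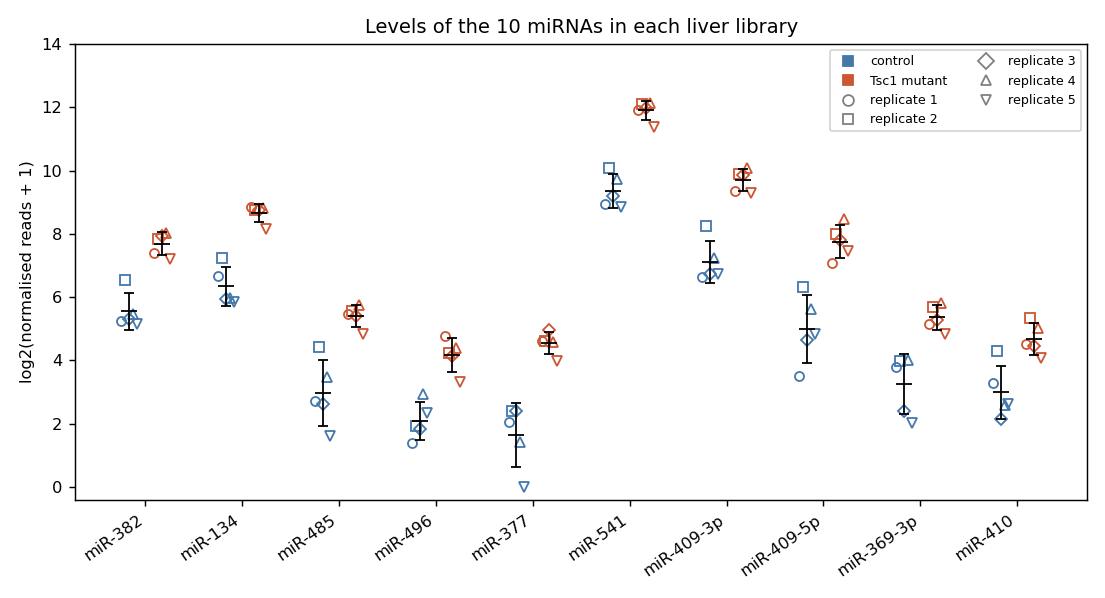
Level of each of the 10 miRNAs in each library, as log2(normalised reads + 1), in the order of their hairpins along the chromosome. Blue symbols are the 5 controls and orange symbols the 5 Tsc1 mutants, symbol shapes give the replicate number, and black bars give the mean and SD of each group. The groups are apart for 9 of the 10 miRNAs and overlap for miR-410, where the mutant replicate 5 at 15.9 normalised reads lies below control replicate 2 at 18.5.

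The other 5 members were scarce, and their control values rest on few reads. Over the 5 controls together, miR-369-3p had 54 reads, miR-485 had 50, miR-410 had 49, miR-496 had 17 and miR-377 had 16. The same miRNAs had 202, 208, 130, 90 and 115 reads over the 5 mutants.

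Expression of miR-377, which has been studied in kidney cells exposed to high glucose, was 3.20, 4.27, 4.31, 1.68 and 0 normalised reads in control replicates 1 to 5. In mutants it was 23.5, 23.8, 30.5, 22.9 and 14.9. Every mutant was at least 3.45 times the highest control, the widest gap among the 10. In reads, controls had 0 to 6 and mutants 15 to 29. Control replicate 5, at 0 reads, allows up to 3.08 normalised reads. In log2 terms miR-377 rose by 2.90 ± 0.45 (SE; adjusted p = 0.000708 in limma). It is the highest of the 10, but it was 1.88 with a pseudocount of 5 and 3.22 with one of 0.5. The ratio of summed reads, scaled as in the table, was 7.77 (95% exact interval 4.58 to 14.0, counting error only).

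The levels of miR-485, known in neurons for its action on the synaptic vesicle protein SV2A, were 5.59, 20.6, 5.17, 10.1 and 2.05 normalised reads in control replicates 1 to 5 and 43.5, 45.8, 41.0, 53.1 and 27.8 in mutants. Its groups did not overlap, and control replicate 2 was the highest control at 29 of the 50 control reads. On the log2 scale miR-485 rose by 2.43 ± 0.46 (SE; adjusted p = 0.0027 in limma). Of miR-496, controls had 1.60, 2.84, 2.59, 6.73 and 4.10 normalised reads, which is 2 to 4 reads each, and mutants had 26.1, 17.8, 16.8, 20.1 and 8.94. In this miRNA control replicate 2 was not high. Between genotypes miR-496 rose by a log2 fold change of 2.08 ± 0.36 (SE; adjusted p = 0.00149 in limma), and the ratio of summed reads was 5.72 (95% exact interval 3.38 to 10.3). With a pseudocount of 5 its log2 fold change was 1.40.

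The last 2 hairpins gave low levels and fold changes among the lower ones. For miR-369-3p, described as acting on AU-rich elements of messenger RNAs, controls had 12.8, 14.9, 4.31, 15.1 and 3.08 normalised reads and mutants 34.8, 50.1, 37.9, 55.9 and 27.8. The groups did not overlap, and the log2 fold change was 2.11 ± 0.43 (SE; adjusted p = 0.00474 in limma). For miR-410, controls had 8.79, 18.5, 3.45, 5.05 and 5.13 normalised reads and mutants 21.7, 39.9, 21.0, 31.5 and 15.9. Mutant replicate 5 fell below control replicate 2, so miR-410 was the 1 member whose groups overlapped. Its log2 fold change was the lowest of the 10, at 1.70 ± 0.41 (SE; adjusted p = 0.0163 in limma). Without control replicate 2 it was 2.02 (limma adjusted p = 0.00135). Without each of the other libraries in turn it stayed past the threshold, with limma adjusted p up to 0.049.

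Together, 10 of 10 members passed the test as higher and 0 as lower, and for 9 of 10 all mutants were above all controls. Over the 285 miRNAs that order held for 10.2%, and the opposite order for 2.46%. The median log2 fold change of the 10 was 2.38, against -0.06 over all miRNAs tested. The filter on low values, which asked for 5 normalised reads on average over all libraries, removed none of the 10, but miR-377 and miR-496 had control means of 2.69 and 3.57 and reached it only through the mutants. The counts and the median of the members include both. Of the other Dlk1-Dio3 miRNAs, 18 of 21 passed as higher and 0 as lower, with a median of 2.62, a lowest value of 1.28 (miR-323-3p, which did not pass) and a highest of 3.13 (miR-376b). Outside the locus 3 of 254 passed as higher and 6 as lower, and the median was -0.09. Among miRNAs outside the locus miR-802 had the highest, 1.72, above miR-410 and below the other 9 members.

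**Figure D2:**
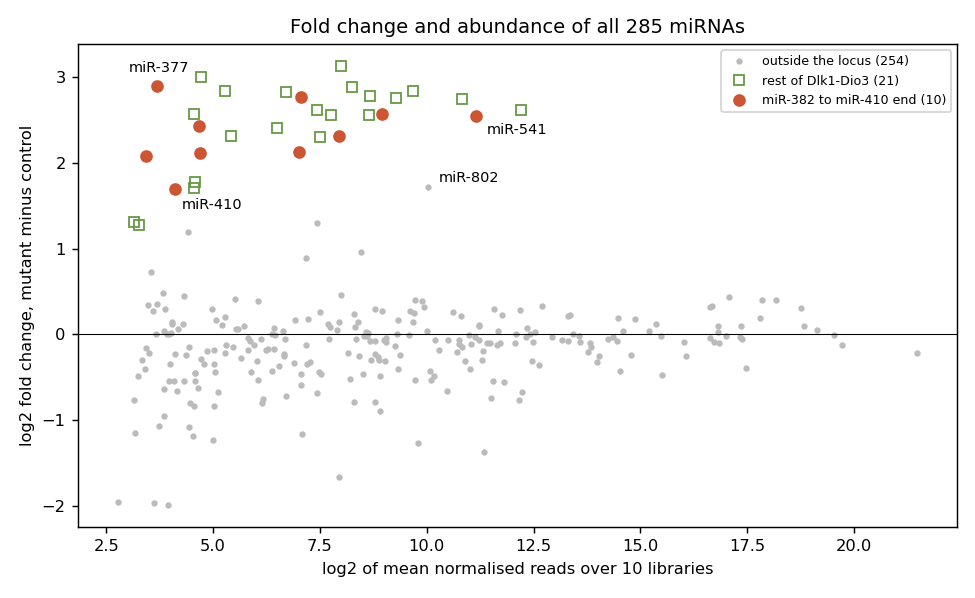
Log2 fold change (mutant minus control) of all 285 miRNAs against log2 of their mean normalised reads over the 10 libraries. Filled orange circles are the 10 miRNAs of the cluster end, open green squares the 21 other Dlk1-Dio3 miRNAs and grey dots the 254 miRNAs outside the locus, of which miR-802, at 1.72, has the highest fold change.

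Along the chromosome the fold changes did not rise or fall steadily, and their order was not tested. The first 3 measured hairpins, of miR-382, miR-134 and miR-485, were at 2.13, 2.32 and 2.43 on the log2 scale, and miR-496 was at 2.08. The highest values came from the next measured hairpins, miR-377 at 2.90, miR-541 at 2.55 and miR-409 at 2.77 (5p) and 2.57 (3p). After them miR-369-3p was at 2.11. The lowest value was that of miR-410, 9944 bases from the start of the miR-382 hairpin. The 95% intervals of all 10 overlapped one another, sharing the stretch between 1.99, the lower bound of miR-541, and 2.60, the upper bound of miR-410.

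**Figure D3:**
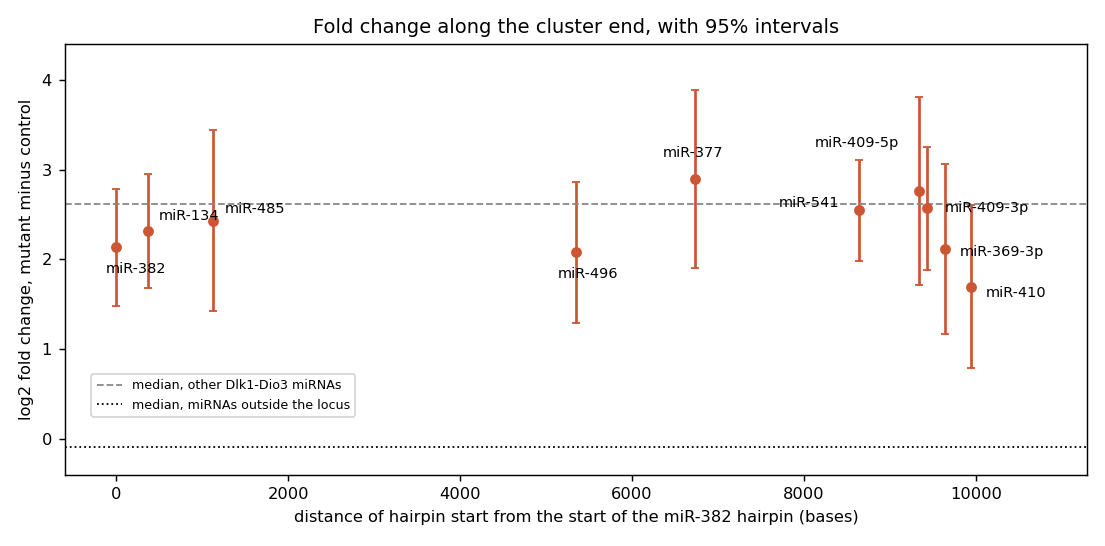
Log2 fold change of each of the 10 miRNAs (points) with its 95% interval from limma (bars), against the distance of its hairpin start from the start of the miR-382 hairpin in bases; the 2 arms of miR-409 are set slightly apart. The dashed line is the median of the 21 other Dlk1-Dio3 miRNAs, 2.62, and the dotted line that of the 254 miRNAs outside the locus, -0.09.

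Differences between members in how far they rose were tested as ratios to miR-541 within each library, which the scaling between libraries touches only through the added 1. Of the 10 ratios tested, the miR-409 arm ratio included, 0 passed by exact permutation after Benjamini-Hochberg adjustment, and 1 had an unadjusted p under 0.05. That was miR-382 to miR-541, with a log2 ratio of -3.80 ± 0.28 in controls and -4.22 ± 0.19 in mutants (mean ± SD of 5 libraries), a difference of -0.41 ± 0.15 (SE; 2-sided exact permutation p = 0.0397, adjusted p = 0.278). The largest difference was that of miR-410, at -0.85 ± 0.34 (SE; exact permutation p = 0.0556, adjusted p = 0.278). For miR-410 all 5 mutant ratios lay between -7.51 and -6.75, while controls ran from -7.14 to -5.65. The ratio of miR-409-3p moved least, by 0.025 ± 0.15 (SE; exact permutation p = 0.889, adjusted p = 0.889). For the other 6 members the differences lay between -0.47 for miR-496 and 0.35 for miR-377. With a pseudocount of 5, which lowers the fold change of scarce miRNAs more than that of miR-541, the ratios of miR-485, miR-496, miR-377, miR-369-3p and miR-410 passed as lower in mutants, so these ratios rest on that choice.

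**Figure D4:**
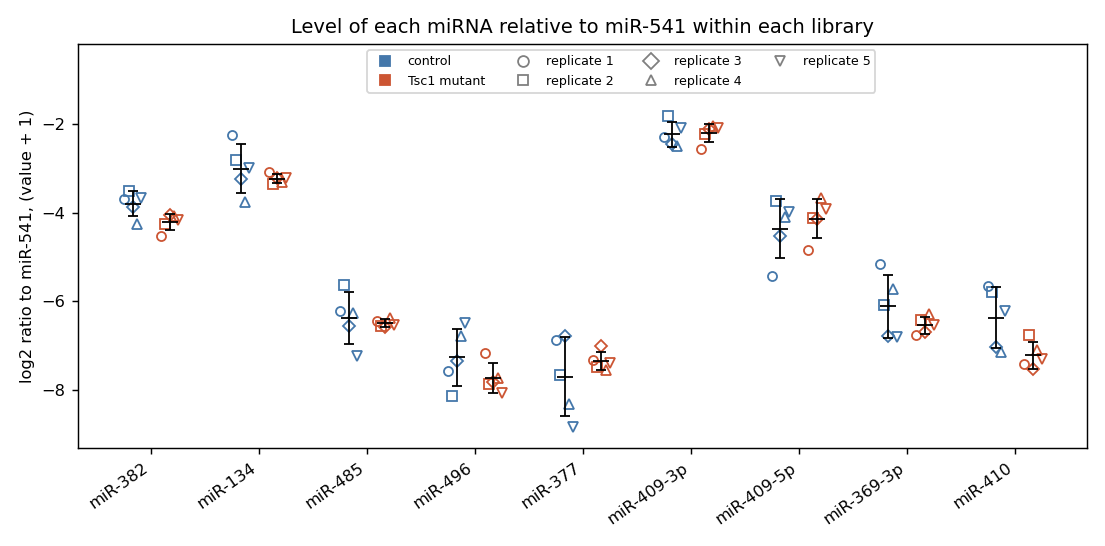
Log2 ratio of each of 9 miRNAs to miR-541 within each library, from values + 1. Blue symbols are controls and orange symbols Tsc1 mutants, shapes give the replicate number, and black bars the mean and SD; group means differ least for miR-409-3p and most for miR-410, and mutant values lie closer together than control values for all 9 ratios.

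The proportions among the members varied less between mutant libraries than between control libraries. The SD of the log2 ratio to miR-541 was smaller in mutants for 9 of 9 members, at 0.088 to 0.44 against 0.28 to 0.90 in controls. The coefficient of variation of the normalised reads was also smaller in mutants for 10 of 10 members, at 17.3 to 36.9% against 38.1 to 83.3%. Without control replicate 2 it was smaller for 8 of 10. A test of these spreads was not run, and control values rest on fewer reads, whose part in the spread was not tested. As a share of the 10 members' normalised reads, miR-541 made up 60.9 to 71.3% in controls and 65.8 to 71.3% in mutants. With miR-409-3p added the share was 76.6 to 83.8% and 81.6 to 83.4% of the reads of the 10 rows. The hairpins and arms with no row are not in this share.

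The first 3 miRNAs by level were the same in both groups. The mature sequences are 21 to 25 bases long, and no length correction was made. In controls miR-541 was followed by miR-409-3p, miR-134, miR-382, miR-409-5p, miR-369-3p, miR-485, miR-410, miR-496 and miR-377. Of these neighbours only miR-541 and miR-409-3p had ranges that did not overlap. In mutants the order was miR-541, miR-409-3p, miR-134, miR-409-5p, miR-382, miR-485, miR-369-3p, miR-410, miR-377 and miR-496. Ranges there did not overlap between miR-541 and miR-409-3p, between miR-409-3p and miR-134, and between miR-382 and miR-485. The ranges of all other neighbours overlapped.

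Summed over the 10 members, control replicates 1 to 5 had 770.3, 1757, 832, 1196 and 697 normalised reads and mutant replicates 1 to 5 had 5453, 6423, 6001, 6774 and 3985. The lowest mutant sum was thus above the highest control sum. Means were 1050.4 ± 439 and 5727 ± 1091 (mean ± SD of 5 libraries), a ratio of 5.45, and 6.55 without control replicate 2. Of all normalised reads of the Dlk1-Dio3 miRNAs in the table, they supplied 22.9 to 29.4% in controls and 22.2 to 25.5% in mutants. These shares overlapped, with means of 26.6 ± 2.41% and 24.4 ± 1.35% (mean ± SD of 5 libraries). The sum of the other 21 locus miRNAs had a ratio of means of 6.25.

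In some libraries most of the 10 members deviated the same way from their group mean. In control replicate 2, 9 of 10 members lay above the control mean, with a median deviation of 0.96 on the log2 scale, and 7 of 10 had their highest control value there. The 21 other locus miRNAs deviated by a median of 0.70 in that library and the miRNAs outside the locus by -0.03. The sums over biliary epithelial, striated muscle and stellate and smooth muscle markers given above, and miR-375, were high in the same library. The part of these markers in its raised values was not tested. In mutant replicate 5, 0 of 10 members lay above the mutant mean, and 9 of 10 had their lowest mutant value there. The median deviation was -0.52 there for the 10 members, -0.49 for the other locus miRNAs and 0.05 outside the locus. In mutant replicates 2 and 4 all 10 members lay above the mutant mean, by a median of 0.18 and 0.35. Without control replicate 2 the median log2 fold change of the members was 2.64, and without mutant replicate 5 it was 2.51, with 10 of 10 passing in limma both times. Leaving out control replicate 2 gave log2 fold changes of 3.10 for miR-409-5p, 3.08 for miR-377, 2.85 for miR-409-3p, 2.80 for miR-485, 2.72 for miR-541, 2.55 for miR-134, 2.38 for miR-382, 2.30 for miR-369-3p, 2.04 for miR-496 and 2.02 for miR-410. These were higher than with that library for 9 members and lower for miR-496. Without control replicate 1, the lowest control of miR-409-5p, the value of miR-409-5p was 2.40. Without the replicates 1 of both groups the median log2 fold change of the members was 2.36. With control replicate 2 left out as well this median was 2.67, and 10 of 10 members passed in limma both times.

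**Figure D5:**
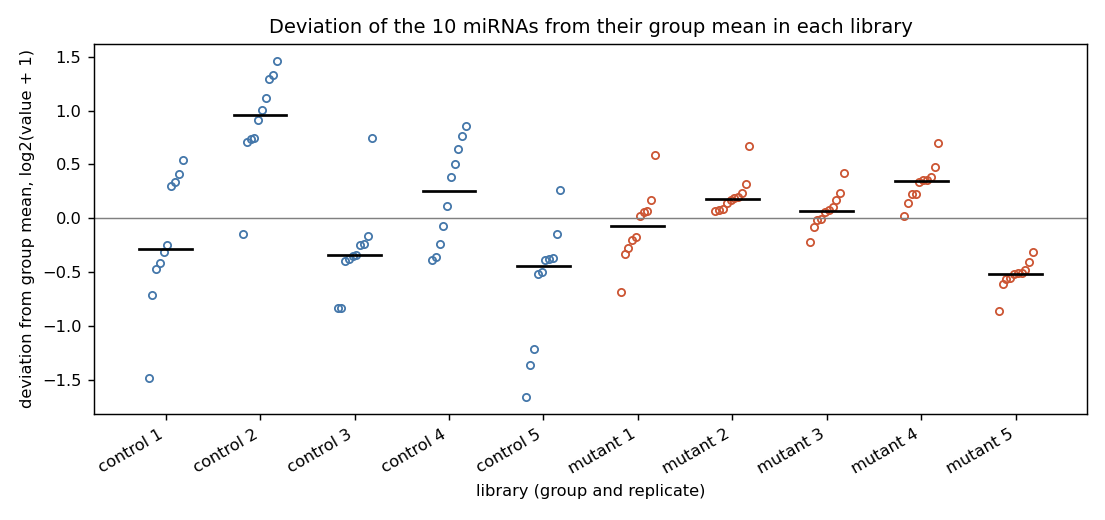
Deviation of each of the 10 miRNAs (circles) from its own group mean in each library, on the scale log2(normalised reads + 1), sorted within a library; black lines are medians. The median is 0.96 in control replicate 2 and -0.52 in mutant replicate 5, and between -0.44 and 0.35 in the other 8 libraries.

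The miRNAs outside the 10 whose profile over the libraries came closest were sought by the root mean square distance between log2(normalised reads + 1) values centred on each miRNA's own mean, over the 10 libraries. This centring leaves the difference between genotypes in the profile, so a small distance largely means a similar fold change. The 5 nearest to the members' mean profile were miR-381 at 0.28, miR-411 at 0.29, miR-127 at 0.29, miR-434-5p at 0.29 and miR-540-3p at 0.33. Their log2 fold changes ran from 2.57 for miR-540-3p to 2.85 for miR-381. All 5 are miRNAs of the Dlk1-Dio3 locus, of which miR-381 and miR-411 belong to the same miRNA cluster as the 10, and miR-127 and miR-434 lie antisense to Rtl1. Within the 10, the distance ran from 0.16 for miR-541 to 0.61 for miR-377, where each member is itself part of the mean profile. The nearest miRNA outside the locus was miR-802, at 0.57, and the median over all miRNAs outside the 10 was 1.36.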

How the data were processed

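The deposited table holds 1 column for each of 10 liver libraries and 285 mature miRNAs. The values are a normalised signal that the authors made by dividing miRNA reads by 1 factor per library; DESeq is named in the submitters' processing notes, without a version. For the aligner, annotation and build: not given in the sources used here. The number in each column name identified its sample. All values were whole multiples of 1 step per library (within 0.001), which gave read numbers.

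Values were tested over all 285 miRNAs as log2(value + 1) in limma 3.58.1 (R 4.3.3) with an intensity trend and Benjamini-Hochberg adjustment at 0.05; the fit was tested on simulated data. Such fold changes understate those of scarce miRNAs. Ratios of 2 miRNAs were compared by 2-sided exact permutation over 252 splits, for which the smallest possible p is 0.00794. P-values set the difference between groups against the spread between these libraries, which may not each come from a separate animal. Reads without molecular identifiers are not independent molecules, so intervals and read floors cover counting error only. Members and lists were chosen with earlier results of these data known. Named are all members, the 5 miRNAs nearest to their mean profile, and the highest and lowest fold change in the rest of the locus. Also named are miR-122 and markers that stood apart in a library where members did. The values of miR-802, miR-137 and miR-129-5p were added after they were seen. Hairpins were placed by RefSeq names or synonyms (13 of 13, each with the same span in GENCODE M21), and 9 of 10 rows matched a mature sequence in RefSeq; miR-485 is named only. Related miRNAs may share reads. Alternatives were other pseudocounts, filters and scalings, other limma settings, voom on whole reads, a replicate block and left-out libraries. Figures were drawn with matplotlib 3.10.9.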

Additional observations from a re-analysis of the deposited data

Results flagged for a closer look

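In 42 groups of 5 values, made of the 10 miRNAs, their sum and the 10 ratios in each genotype, 1 library was separated from the other 4 by an unusually wide gap in 3 groups, where chance gives about 2.1. The groups overlap, since the ratios and the sum are built from the same miRNAs. Control replicate 2 was the high value for miR-382 at 93.1 normalised reads, with the next control at 43.7, and for miR-409-3p at 301 normalised reads, with the next control at 149.7. Tsc1 mutant replicate 5 was the low value for miR-134 at 284 normalised reads, with the next mutant at 428.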

How the results depend on the processing

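All 10 miRNAs kept their direction and stayed past the threshold in all 227 values from 23 alternative settings, with log2 fold changes from 1.28 to 3.27 and limma adjusted p up to 0.049. A mean of at least 20 normalised reads removed miR-377, miR-496 and miR-410 from the test. Over all miRNAs the number called lower, 6, was 23 with array weights, 10 with the replicate block, 11 without the replicates 1 of both groups, 13 without control replicate 2 as well, and 2 to 10 with single libraries left out (10 without control replicate 1, 3 without control replicate 3 or 5, and 2 without mutant replicate 4). The number called higher, 31, was 28 to 34 with single libraries left out. With a pseudocount of 5 the differences in ratio to miR-541 were -0.63 for miR-485, -1.14 for miR-496, -0.65 for miR-377, -0.85 for miR-369-3p and -1.25 for miR-410, all past the threshold by exact permutation, and -0.0045 for miR-409-3p. A pseudocount that large takes more from the fold change of scarce miRNAs by construction. With single libraries left out, signs changed for the arm ratio of miR-409 (-0.33 to 0.056) and for the ratios to miR-541 of miR-409-5p (-0.047 to 0.40), miR-485 (-0.33 to 0.074) and miR-409-3p (-0.042 to 0.13, at -0.029, -0.016 and -0.0050 in between), none of which passed. Same-numbered libraries were not paired by the labels. Their deviations correlated at 0.81, 0.16, -0.02, 0.46 and 0.05, and only those numbered 1 and 4 correlated best with each other, so the block is given here only; it kept all 10 calls. The edgeR test was not run. The control levels of miR-377 and miR-496 are limited by depth, at 0 to 6 reads per library.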
